A study of Dendrobaena veneta with 18 samples.

Results

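The cerebral ganglion was set against the gut in earthworms of the species Dendrobaena veneta that had lived for 28 days in soil with 0.6 mg/kg carbamazepine, a sodium channel blocker given to people against epileptic seizures. The members are the assembled genes, called features here, that had 10 or more counts in at least 2 of the 6 libraries of this dose. They number 58754 of 243619 features in the deposited tables. Of these, 41394 (70.5%) reached 10 counts in at least 1 library of each tissue, 8291 did so only in ganglion libraries and 9069 only in gut libraries. Of the 9069, 3343 did so in gut libraries 1 and 3 only, which are treated as 1 sample below. The 6 libraries were 3 of ganglion and 3 of gut, all from adult worms kept in the dark without added food. The same tissues were taken from worms at 10 mg/kg and from control worms in soil with the solvent methanol alone, with 3 libraries each except control gut, of which replicates 2 and 3 were used and replicate 1 was not analysed here. Whether a replicate is 1 animal or a pool is not in the labels, so each p-value speaks of the spread among these samples, which may be technical.

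The cerebral ganglion is the bilobed nerve mass above the pharynx that serves an earthworm as its brain, and neural tissue is known for a wide repertoire of ion channels, receptors and signalling peptides. The gut digests soil and organic matter along the length of the body, and digestive epithelia are known for making a few secreted products in bulk. The files pair no feature with a gene name, a function or a sequence, so neither tissue could be checked against named markers and features are given by identifier, without their shared TRINITY prefix.

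Library totals at the low dose ran from 12536754 to 16359630 counts in ganglion and from 13195692 to 14270200 in gut. Gut libraries 1 and 3 were near-identical, their counts giving chi-square values that averaged 2.32 over features (1 being counting noise alone), and with 5 features at 50 or more counts in 1 library and 0 in the other. The 2 other gut pairs had means of 34.3 and the 3 ganglion pairs means of 81.8 to 103.1. Gut libraries 1 and 3 were therefore averaged to 1 sample, which left 3 ganglion and 2 gut samples. Libraries were matched across tissues by features present in some worms and absent from others. Over 2741 such features, ganglion 1 correlated with gut 1 and gut 3 at 0.809 and 0.810, and ganglion 2 with gut 2 at 0.677. No other pair of low dose libraries from the 2 tissues exceeded 0.116, and ganglion 3 had no partner. High dose gut 1 and 3 also matched each other, at 0.826, with chi-square values that averaged 17.6, so high dose gut holds 2 matched worms in 3 libraries, which were fitted as 3 samples. The low dose comparison thus holds 2 matched worms and 1 further ganglion, as far as this match shows. In a principal component analysis of all 16 samples, the first component (54.6% of the variance) separated all ganglion from all gut samples, and on the second (10.8%) the 3 low dose ganglia lay between -204.4 and -98.2, apart from the other ganglia at 2.19 to 126.7.

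Between ganglion and gut of low dose worms, 11735 members differed at an adjusted p under 0.05 in edgeR's quasi-likelihood test and are referred to as called, 6218 with more RNA in ganglion and 5517 with more in gut. This is 20.7% of the 56574 members that could be tested. Over all 69689 features tested it was 17.3% in either direction, 9.23% higher in ganglion and 8.1% higher in gut. The other 2180 members did not pass the filter on low counts of the fit and carry no test. Among the tested members, 1940 reached 10 counts in gut libraries 1 and 3 only, which count as 1 sample. In bulk tissue, fewer cells of a type and less RNA per cell cannot be told apart, so each difference is one in the share of RNA. Leaving out a gut sample cut these counts most. Without gut 2, edgeR called 914 features higher in ganglion and 2434 higher in gut, and without the averaged gut 1 and 3 it called 726 and 2287. In both cases gut had 1 sample, assumed to vary like the other groups. Without ganglion 3 it called 4701 and 3537. High dose gut 1 and 3, which matched as 1 worm, entered the main fit as separate samples and share in its spread. With the libraries of a tissue that matched as 1 worm averaged, edgeR called 5677 features higher in ganglion and 4726 higher in gut. In the main fit over all 69689 features the counts were 6432 and 5645, of which the ganglion side made up 53.3%. With limma on log2(FPKM + 1) in place of edgeR on counts, the ganglion side made up 41.0% of the calls.

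Values of the groups did not overlap for 16227 tested members with all ganglia above both guts and for 16596 with both guts above all ganglia. Over all features tested these numbers were 18125 (26.0%) and 17843 (25.6%). Of the members without overlap, 6155 and 5511 were called. At an unadjusted p under 0.05 by edgeR there were 22080 members, and 34.6% of all features tested.

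Most called differences were large, as a call needs a difference well above its standard error. A fitted difference of at least 4-fold was found for 4936 members called higher in ganglion and 4650 called higher in gut, and one of at least 16-fold for 3288 and 3203. Of the members called higher in ganglion, 1307 (21.0%) had 0 counts in every gut library. Of those called higher in gut, 1705 (30.9%) had 0 counts in every ganglion library. For all features tested, where the directions offset each other, the median fitted log2 fold of ganglion over gut was 0.17. Without regard to sign, the median for members was between 1.20 and 1.80 across the classes of level given below. The median fitted log2 fold was 4.31 among ganglion calls and -5.10 among gut calls, each chosen for 1 direction. With features at 0 in a tissue placed at the bound given by a floor of 3 counts per library, these medians were 3.67 and -3.49. Which side had the larger median therefore turned on how features at 0 were treated.

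The levels reached on both sides were alike on the FPKM scale, which takes the length of the feature into account. The median FPKM in the tissue of higher level was 11.3 in ganglion for the ganglion calls and 10.9 in gut for the gut calls. In the tissue of lower level the medians were 0.257 FPKM in ganglion for the gut calls and 0.443 in gut for the ganglion calls. At least 1000 FPKM were reached by 64 ganglion calls in ganglion and by 70 gut calls in gut. The effective length of a feature, recovered from the ratio of its count and its FPKM, had a median of 1233 bases for ganglion calls (quartiles 725 and 1946) and of 1171 bases for gut calls (quartiles 594.7 and 2135). Members without a call had a median of 1052 bases (quartiles 563.8 and 1900). A length could be recovered for 88.9%, 80.0% and 54.1% of these members, so the last value leaves out many members of low level and no test was made of it.

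The share of members called higher in ganglion rose more steeply with level, up to 1000 CPM, than the share called higher in gut. By number, both kinds of call were most frequent between 5 and 20 CPM, at 2233 and 1875. Levels were means over 3 ganglia and 2 guts, so a feature confined to gut ranks lower than one equally high in ganglion alone. Among 13694 members with a mean under 1 CPM (counts per 1000000 of the scaled library total) over the 5 low dose samples, 3.10% were called higher in ganglion and 6.39% higher in gut. Among 5440 members between 20 and 100 CPM these shares were 25.7% and 14.8%, and among 927 members between 100 and 1000 CPM they were 35.4% and 16.3%. The 89 members at 1000 CPM or more were called 22 times on each side. The median standard error of the log2 fold was 1.58 in the lowest of these classes and 0.48 between 20 and 100 CPM, so low members had to differ more to be called.

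**Figure D1:**
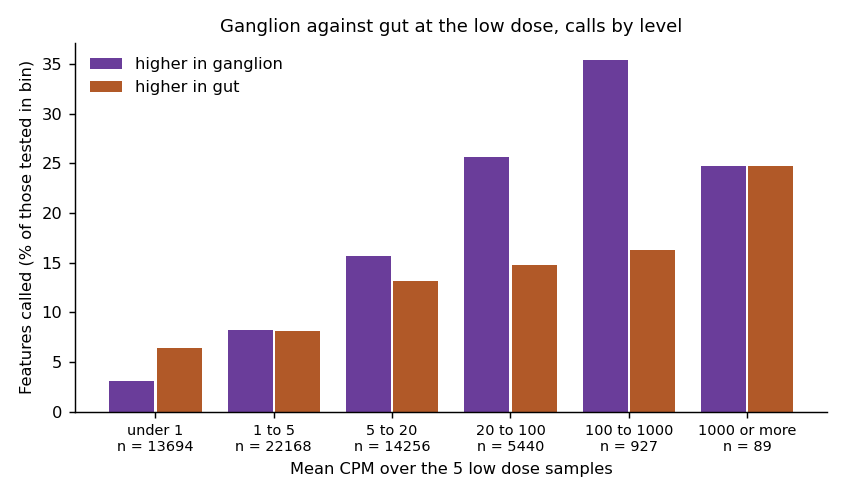
Share of tested members called higher in ganglion (left bar) or in gut (right bar), in %, by mean CPM over the 5 low dose samples. The ganglion share is below the gut share under 1 CPM and above it from 5 to 1000 CPM, with 35.4% against 16.3% between 100 and 1000 CPM.

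Gut calls held a larger share of the counts in every gut library than ganglion calls held in any ganglion library. Ganglion 3 came close. Ganglion calls held 31.7%, 32.8% and 38.3% of the counts in ganglion libraries 1, 2 and 3, and 4.82%, 5.15% and 4.83% in gut libraries 1, 2 and 3. Gut calls held 2.06%, 2.08% and 1.38% of the counts in ganglion libraries 1, 2 and 3, and 38.7%, 40.1% and 38.8% in gut libraries 1, 2 and 3. These shares describe the members that the same libraries selected. The number of features that together held 50% of a library's counts was 474, 761 and 329 in the ganglion libraries and 603, 521 and 597 in the gut libraries, so the gut libraries lay within the range of the ganglia. On the FPKM scale, 50% of the summed values lay in 165, 215 and 108 features in the ganglion libraries and in 282, 249 and 282 features in the gut libraries, so there every ganglion was below every gut.

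The 2 most abundant features called higher in ganglion without overlap differed in how evenly the ganglia carried them. DN107026_c4_g1 stood at 12508, 6436 and 9345 CPM in ganglion samples 1, 2 and 3, against 90.8 CPM in the averaged gut 1 and 3 and 173 CPM in gut 2. The ganglia were all far above both guts, and DN107026_c4_g1 alone held between 0.693% and 1.33% of the counts of a ganglion library. Set over gut, the ganglion had a log2 fold of 6.16 (SE 0.92) at an adjusted p of 0.00104 in the quasi-likelihood test of edgeR. DN86919_c2_g1 stood at 229, 5334 and 19323 CPM in ganglion samples 1, 2 and 3, against 37.0 CPM in the averaged gut 1 and 3 and 193 CPM in gut 2. Ganglion 1 lay only just above gut 2, so the groups of DN86919_c2_g1 were separated by a narrow gap and its level differed more among ganglia than between the lowest ganglion and the guts. Its log2 fold was 6.17 (SE 1.62) at an adjusted p of 0.0216 in the quasi-likelihood test of edgeR. The log2 fold of DN86919_c2_g1 was 4.597 without ganglion 3, 7.80 without gut 2 and 3.71 with the matched worm as a block. Its call was lost without gut 2, without the averaged guts and with low dose samples alone in the fit, at adjusted p values of 0.0848, 0.176 and 0.101 by edgeR.

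Within matched worms DN86919_c2_g1 was 2.61 higher in ganglion on the log2(CPM + 0.5) scale in the worm of ganglion 1, and 4.78 higher in that of ganglion 2. For DN107026_c4_g1 these differences were 7.10 and 5.21. Per length, DN107026_c4_g1 averaged 8074 ± 2882 FPKM in low dose ganglia (SD, n = 3) and 134.7 ± 56.1 FPKM in low dose guts (SD, n = 2). Its effective length was 1172 bases, and that of DN86919_c2_g1 was 726 bases. At the other doses the ganglion was higher in DN107026_c4_g1 by a log2 fold of 6.52 in control and of 6.05 at the high dose, close to the 6.16 of the low dose. For DN86919_c2_g1 the log2 fold was 0.73 in control and 2.12 at the high dose, at adjusted p values of 0.732 and 0.175 in the quasi-likelihood test of edgeR. Its gut samples stood at 603 and 2357 CPM in control worms, at 37.0 and 193 CPM at the low dose, and between 703 and 772 CPM at the high dose. The low dose guts were thus the lowest of the guts, but the difference of the low dose fold from the control and high dose folds did not pass, at adjusted p values of 0.442 and 0.848 in the quasi-likelihood test of edgeR.

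On the gut side, the 2 most abundant of such features were all but absent from the ganglion. DN78240_c1_g1 stood at 1 count in each of the 3 ganglion libraries, that is 0.0573, 0.0741 and 0.0877 CPM, against 15213 CPM in the averaged gut 1 and 3 and 20254 CPM in gut 2. It held 1.87%, 2.39% and 1.85% of the counts of gut libraries 1, 2 and 3. The ratio of gut over ganglion was 248603 with a 95% exact counting interval of 85067 to 1205501, which covers counting error only. DN92259_c2_g3 stood at 0.573, 0.222 and 0 CPM in ganglion samples 1, 2 and 3, from 10, 3 and 0 counts, against 13567 and 14896 CPM in the gut samples. The groups lay apart by orders of magnitude in both features. The adjusted p was 1.94e-04 for DN78240_c1_g1 and 6.14e-04 for DN92259_c2_g3 in the quasi-likelihood test of edgeR, and both calls were kept in all 18 alternatives run for them. Per length, DN78240_c1_g1 averaged 39275 ± 6656 FPKM and DN92259_c2_g3 10179 ± 385 FPKM in low dose gut (SD, n = 2), with effective lengths of 541 and 1677 bases. In gut, DN78240_c1_g1 averaged 42065 ± 15466 CPM in control (SD, n = 2), 17734 ± 3565 CPM at the low dose (SD, n = 2) and stood at 48050 CPM, 76749 CPM and 28165 CPM in high dose guts 1, 2 and 3. DN92259_c2_g3 averaged 40150 ± 16250.4 CPM in control (SD, n = 2) and 14231 ± 940 CPM at the low dose (SD, n = 2), and stood at 36913 CPM, 72076 CPM and 22269 CPM in high dose guts 1, 2 and 3. In the 6 control and high dose ganglia, DN78240_c1_g1 averaged under 1 CPM and DN92259_c2_g3 under 3 CPM in each group.

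**Figure D2:**
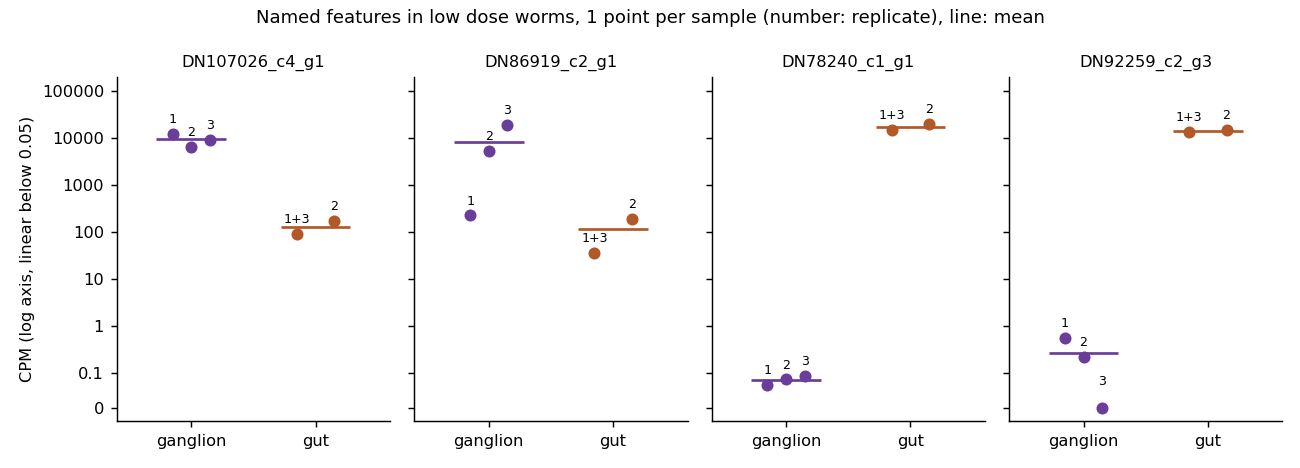
CPM on a log axis (linear below 0.05) of the 2 most abundant called features of each side in low dose ganglion (left) and gut (right), 1 point per sample labelled with its replicate number and a line at the mean. DN86919_c2_g1 spans 229 to 19323 CPM among ganglia, while both gut features stay below 1 CPM in every ganglion.

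The direction of most differences was the same in both matched worms. The tissue difference was taken within each worm on the log2(CPM + 0.5) scale, as ganglion 1 minus the averaged gut 1 and 3 and as ganglion 2 minus gut 2. Of the 56574 members tested, 44518 (78.7%) had the same sign in both worms, and the differences of the 2 worms, which share no library, correlated at 0.825 across these features. Among called members the sign was the same for 11720 and not the same for 15, but the calls were made from these same samples, which nearly fixes this count. A difference of at least 4-fold in the same direction in each worm was found for 7578 members. One of at least 4-fold in opposite directions was found for 51, none of them called, and in 49 of the 51 it was the worm of ganglion 2 that had the higher level in ganglion.

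**Figure D3:**
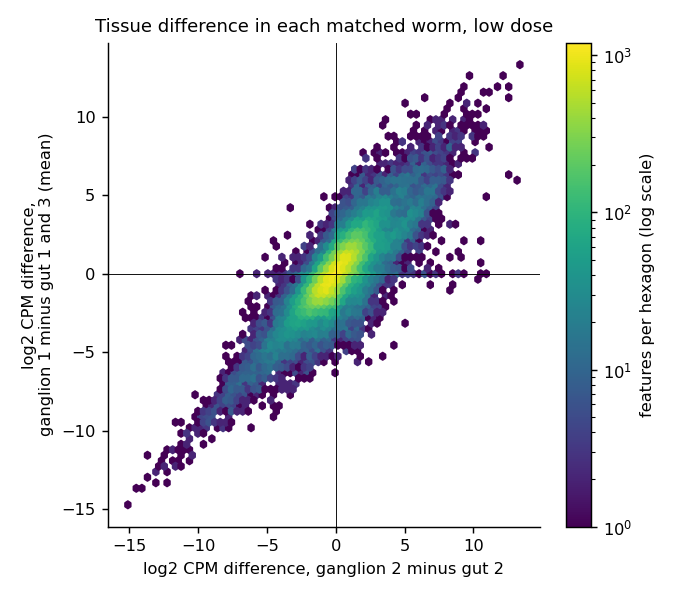
Differences in log2(CPM + 0.5) between ganglion and gut in the worm of ganglion 1 (vertical) and in that of ganglion 2 (horizontal), for 56574 members, coloured by the number of features per hexagon on a log scale. Most members lie along the diagonal, with a correlation of 0.825, and a small group near 0 on the vertical axis is higher in ganglion in the worm of ganglion 2 only.

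Ganglion 3, which had no gut partner, was set against the calls that edgeR made without it. Ganglion 3 lay above both gut samples for 4335 of the 4700 ganglion calls that were also among the 69689 features (92.2%) and below both guts for 3512 of the 3537 gut calls (99.3%). It lay on the opposite side of both guts for 71 and 4 of them. The same gut samples made these calls and were then set against ganglion 3, so the comparison is not independent. The shares of all features with ganglion 3 above or below both guts were not taken.

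The ganglia differed more among themselves than the guts did. Over 20712 members with a mean of at least 5 CPM, the median absolute difference on the log2(CPM + 0.5) scale was 0.55 between ganglia 1 and 2, 0.54 between ganglia 1 and 3 and 0.73 between ganglia 2 and 3. It was 0.33 between the 2 gut samples, and between 1.11 and 1.44 for the 6 pairs of a ganglion and a gut. A difference of at least 4-fold separated 9.66% to 14.8% of these members in the pairs of ganglia, 4.13% in the pair of guts and 28.0% to 36.1% in the pairs across tissues. The pairs across tissues with the smallest median differences were the matched ones for ganglion 1 and ganglion 2, at 1.14 and 1.11, and the largest involved ganglion 3.

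Some features were present in both tissues of 1 matched worm and at 0 in the other. Features of this kind were used to match the worms, so their presence follows from the match. The worms also hold unequal numbers of libraries, so the numbers below were not counted under equal conditions. In the worm of ganglion 2, 261 features had at least 30 counts in both tissues and 0 counts in every library of the worm of ganglion 1. The reverse was seen for 19 features. Ganglion 3 had at least 5 counts in 91 of the 261 and in 5 of the 19. Chosen for presence or absence in both tissues alike, these features could hardly differ between tissues, and none was called.

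Members of 1 component of the assembly, that is features whose identifiers share all but the final gene number, mostly went the same way. Of 1015 components with at least 2 called members, 333 had only ganglion calls, 539 only gut calls and 143 (14.1%) had calls in both directions. Reads can be split between features of a component by the counting, so calls of such related features are less certain than others.

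Most calls of low dose worms had the same direction in control and high dose worms. The test in each used its own libraries, with the spread shared in 1 fit. Of the 6218 ganglion calls at the low dose, 5888 (94.7%) had the same sign in control worms and 6095 (98.0%) at the high dose, and 3540 (56.9%) and 4486 (72.1%) were called there. Of the 5517 gut calls, 5348 (96.9%) and 5419 (98.2%) had the same sign, and 3826 (69.3%) and 4307 (78.1%) were called. For equal signs no share over all features was taken, so the sign shares have no background beside them. Over all features, 19.9% were called in control worms (9.74% higher in ganglion and 10.2% higher in gut) and 25.1% at the high dose (13.5% and 11.6%). The high dose calls took gut 1 and 3, which matched as 1 worm, as separate samples. Read from the other side, 54.3% of all 6788 ganglion calls in control worms and 49.5% of all 9435 at the high dose were ganglion calls at the low dose. For gut calls these shares were 55.0% of 7105 and 54.5% of 8091. All 3 comparisons called 3389 ganglion and 3562 gut members of the low dose in the same direction. Across the members tested, the fitted log2 folds of the low dose correlated at 0.756 with those of control and at 0.816 with those of the high dose, as a description over features.

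**Figure D4:**
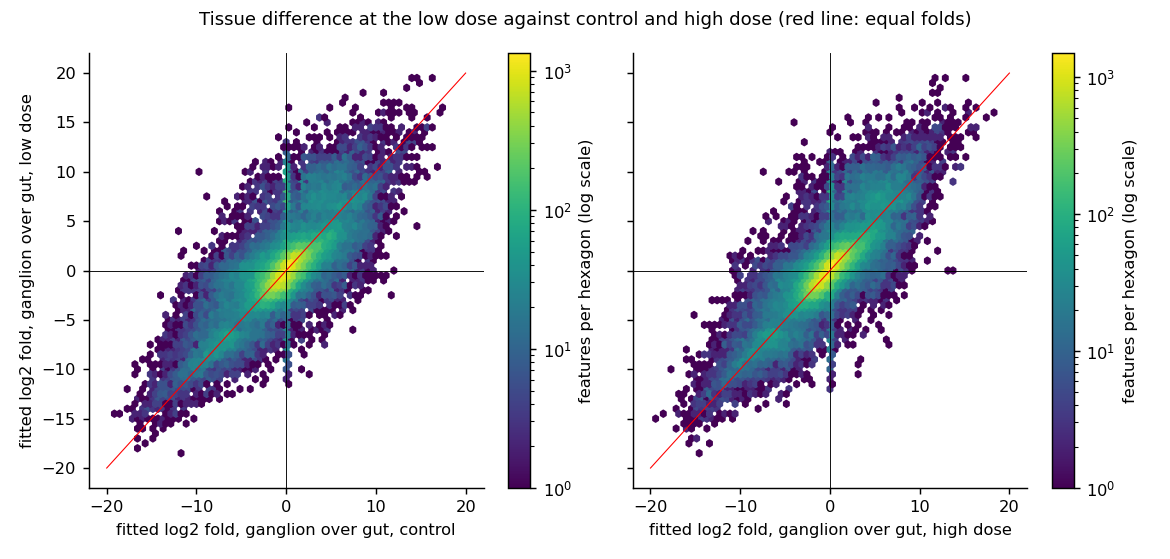
Fitted log2 fold of ganglion over gut at the low dose (vertical) against control (left panel, horizontal) and high dose (right panel, horizontal), for the members tested, coloured by the number of features per hexagon on a log scale. Most features lie in the quadrants of equal sign, with correlations of 0.756 and 0.816, and the red line marks equal folds.

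Features that both other doses called were carried over to the low dose. The low dose libraries did not enter the folds behind this choice. They did share in the filter, the scaling and the spread of the fit, so the choice was not fully independent of them. Of 5800 features called higher in ganglion in control and in high dose worms, 5746 had the same sign at the low dose, 49 the opposite sign, and 3529 (60.8%) were called. Of 5634 called higher in gut, 5391 had the same sign, 230 the opposite sign, and 3638 (64.6%) were called. None was called in the opposite direction. The median log2 fold at the low dose was 2.99 for the ganglion features and -3.84 for the gut features, and 2.62 and -2.93 with features at 0 placed at their bound.

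Stricter sets of tissue features were defined in control and high dose worms by 2 conditions, a level of 20 CPM or more throughout 1 tissue and a margin of 20-fold or more over the highest library of the other tissue. All 108 features of the ganglion set were called higher in ganglion at the low dose, with a median log2 fold of 9.13 (7.60 with features at their bound). Of 545 features of the gut set, 507 were called higher in gut, with a median of -10.28 (-8.31 at their bound). The ganglion set held 3.35%, 2.23% and 3.31% of the counts in low dose ganglia 1, 2 and 3, and 0.0248%, 0.0373% and 0.0265% in low dose guts 1, 2 and 3. The gut set held 0.0487%, 0.214% and 0.0750% of the counts in ganglia 1, 2 and 3, and 24.7%, 26.1% and 24.8% in guts 1, 2 and 3. Both sets took a smaller mean share of their own tissue at the low dose than in the libraries that defined them. In ganglia, the ganglion set held 6.21% ± 3.36 of the counts of control worms, 2.96% ± 0.636 of those of low dose worms and 6.95% ± 1.14 of those of high dose worms (SD, n = 3 each). The lowest control ganglion, at 3.19%, lay within the range of the low dose ganglia. The gut set held 41.8% ± 5.13 in control guts (SD, n = 2), 25.4% ± 0.977 in low dose guts (SD, n = 2) and 41.0%, 51.2% and 31.0% in high dose guts 1, 2 and 3. Because the sets were defined in control and high dose libraries, the shares in those libraries may be raised by the definition. By how much was not examined, and no test was made of these shares.

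The 38 features of the gut set that were not called at the low dose were mostly high in 1 ganglion. Their median level was 27.6 CPM in ganglion 2, with 32 of the 38 at 5 CPM or more, against 1.23 CPM in ganglion 1 and 1.45 CPM in ganglion 3. In the 6 control and high dose ganglia their medians lay between 0.130 and 0.743 CPM. Their medians were 31.1 CPM in the averaged gut 1 and 3 and 17.8 CPM in gut 2. In 32 of the 38, ganglion 2 was the highest of the 3 low dose ganglia. Over the whole gut set, ganglion 2 also held the most counts, 26847 in total against 7973 in ganglion 1 and 9709 in ganglion 3, and 252 of the 545 features were at 0 there. Whether gut tissue entered the preparation of ganglion 2 was not tested. Without ganglion 2 the median log2 fold of the gut set was -10.96, and edgeR called 5640 features higher in ganglion and 5078 higher in gut.

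A test of the tissue difference itself, at the low dose against control and against the high dose, singled out the same 1 feature in both. Both comparisons rest on the same low dose samples, so they are not independent of each other. In control worms DN88869_c4_g1 averaged 5.57 ± 0.517 CPM in ganglion (SD, n = 3) and 3.67 ± 0.113 CPM in gut (SD, n = 2). At the low dose it stood at 6.53, 7.11 and 9.91 CPM in ganglia 1, 2 and 3, against 104.3 CPM in the averaged gut 1 and 3 and 108.5 CPM in gut 2. At the high dose it averaged 6.40 ± 1.22 CPM in ganglion (SD, n = 3) and stood at 3.96, 2.29 and 2.81 CPM in guts 1, 2 and 3. The ganglia of all doses lay between 5 and 10 CPM while the low dose guts stood far above every other gut, so the mean was higher in gut at the low dose and higher in ganglion in the other groups. Ganglion over gut gave a log2 fold of 0.60 in control (SE 0.33, adjusted p = 0.219), -3.76 at the low dose (SE 0.33, adjusted p = 9.33e-05) and 1.08 at the high dose (SE 0.30, adjusted p = 0.0182) in the quasi-likelihood test of edgeR. The low dose fold minus that of control was -4.36 (SE 0.48, adjusted p = 0.0267) and minus that of the high dose -4.84 (SE 0.44, adjusted p = 0.00295) by the same edgeR test. In the matched worms the tissue difference of DN88869_c4_g1 was -3.90 and -3.84, a gap of under 0.1. Its counts were 1782, 1686 and 1807 in low dose guts 1, 2 and 3, and its effective length was 3097 bases. Against control, edgeR's call was lost without low dose gut 2 (adjusted p = 0.504), the averaged low dose guts (0.204), low dose ganglion 2 (0.102), control ganglion 2 (0.0614), control gut 2 (0.282) or control gut 3 (0.288), and in a fit without the high dose samples (0.134). Against the high dose it was lost without low dose gut 2 (adjusted p = 0.0715 by edgeR) or the averaged low dose guts (0.0580). With the libraries of a tissue that matched as 1 worm averaged, high dose gut 1 and 3 included, its adjusted p by edgeR was 0.0487 against control and 0.0138 against the high dose. The difference of log2 folds stayed between -5.22 and -4.06 in all alternatives run.

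**Figure D5:**
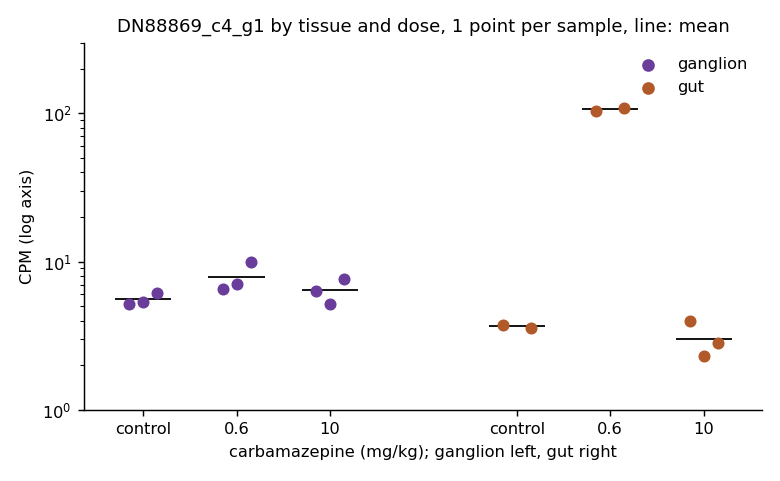
CPM on a log axis of DN88869_c4_g1 in ganglion (left) and gut (right) of control, 0.6 mg/kg and 10 mg/kg worms, 1 point per sample and a line at the mean. The 2 low dose gut samples stand at 104.3 and 108.5 CPM, while all other samples lie below 10 CPM.

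Over all features, 1 of 69689 (0.00143%) was called in each of these 2 tests. An unadjusted p under 0.05 was reached by 5584 features (8.01%) against control, 3361 of them toward ganglion and 2223 toward gut at the low dose, and 4069 (5.84%) against the high dose, 2454 and 1615. DESeq2 called 1317 features against control and 381 against the high dose. With the matched worm as a block, edgeR called 311 against control, 293 of them toward ganglion, and 49 against the high dose, 46 of them toward ganglion. Of the ganglion calls at the low dose, 884 had an unadjusted p of 0.05 or more in both other dose groups, and 228 of these had an unadjusted p under 0.05 in both tests of the difference. For gut calls these numbers were 465 and 110. The 884 and 465 were chosen by the same folds that the tests of the difference compare, and both tests share the low dose samples. The choice itself therefore favours small p-values, and the share over all features was not taken. None of these members passed the adjusted threshold in edgeR's test of the difference without a block, in which DN88869_c4_g1 was the only call.

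A small group of features was called in opposite directions. Compared with control worms, 9 members were called higher in ganglion at the low dose and higher in gut in control. Their median level was 32.2 CPM in low dose ganglia and 6.58 CPM in low dose guts, and 6.07 CPM in control ganglia and 15.2 CPM in control guts. Low dose ganglia lay above every control ganglion in all 9, and low dose guts below every control gut in 7 of the 9. The 9 were chosen from these same libraries for opposite calls, which makes such a separation likely. Its share over all features was not taken. Their adjusted p in the test of the difference ran from 0.150 to 0.319 by edgeR, so none of the 9 passed it. Compared with the high dose, 3 members were called higher in gut at the low dose and higher in ganglion at the high dose, DN88869_c4_g1 among them. The other two, named after their values were seen, were DN85030_c1_g2 and DN86939_c2_g1, and their adjusted p in edgeR's test of the difference from the high dose was 0.826 each.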

How the data were processed

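RNA was poly(A)-selected, and reads were assembled de novo, per the labels' protocols and design text. CASAVA and DESeq2 are named, per the submitters' processing notes, without versions. Which program counted reads is not given in the sources used here. Deposited by the authors were expected counts per assembled gene, which are not scaled between libraries, and FPKM values, which are scaled to length and library. Of 18 labelled samples 17 were used, and control gut replicate 1, planned as part of the fit, was not analysed here.

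Expected counts were rounded, and gut low dose libraries 1 and 3 were averaged. The main test was edgeR's two-sided quasi-likelihood F test (edgeR 4.0.16, limma 3.58.1, R 4.3.3) with TMM factors, the package's filter (minimum count 10, minimum total 15) and 1 coefficient per group. All 16 samples were in 1 fit with 10 residual degrees of freedom and a biological coefficient of variation of 82.7%. P-values were adjusted by Benjamini-Hochberg over the 69689 features that passed the filter, with calls at an adjusted p under 0.05. CPM values are counts per 1000000 of the TMM-scaled total. Standard errors were taken as log2 fold over the root of F. The scripts were tested on simulated data. DESeq2 1.42.0 was an alternative.

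Libraries were matched by 2741 features with at least 30 counts in 1 library and 0 in another in each tissue, correlating whether each had 5 or more counts. Pairs above 0.6 were taken as 1 worm. Effective lengths used values of at least 5 FPKM and 50 counts. Their median coefficient of variation across libraries was 0.336%.

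Named features were, per side, the 2 called ones without overlap of highest mean CPM, and for each comparison between doses the called one of smallest adjusted p in each direction. The members and lists were chosen with earlier results of these data known.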

Additional observations from a re-analysis of the deposited data

Results flagged for a closer look

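In DN88869_c4_g1 the difference between ganglion and gut was itself tested to differ between doses. Its log2 fold of ganglion over gut at the low dose was lower than in control worms by a difference of -4.362 and lower than in high dose worms by a difference of -4.842, at adjusted p values of 0.0267 and 0.00295 in the quasi-likelihood test of edgeR. In both matched low dose worms the gut was the tissue of higher level, but these samples also made the call. The call was lost in 8 of 23 alternatives against control and in 3 of 24 against the high dose. The file pairs this identifier with no gene name, and the cause was not tested.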

How the results depend on the processing

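Features called in the main fit and also in any of the 18 other settings run at the low dose kept their direction. The direction of calls that a setting lost was not compared, and the number of calls moved. The 6432 features higher in ganglion became 10774 with DESeq2, 11024 with gut 1 and 3 as separate samples and 4088 with the low dose groups alone in the fit. Leaving out a sample gave 726 to 5640. The 5645 features higher in gut became 9364 with limma on log2(FPKM + 1) and 8909 with gut 1 and 3 separate, and leaving out a sample gave 2287 to 5078. Calls higher in ganglion were 53.3% of all calls, and 41.0% with limma on log2(FPKM + 1), 60.8% with a worm block, 27.3% without gut 2 and 24.1% without the averaged guts. The median log2 fold of all features was 0.17, and -0.03 and -0.11 with FPKM at pseudocounts of 1 and 0.1. Against control, the 1 call became 3 with RLE size factors, 3 with the filter of the low dose libraries, 1317 with DESeq2, 2058 without a filter, 261 and 132 with FPKM at pseudocounts of 1 and 0.1, 8 with gut 1 and 3 separate, 311 with a worm block and 0 with only the groups compared, and 0 to 6 without a sample. Against the high dose, the 1 call became 381 with DESeq2, 1463 without a filter, 234 and 108 with FPKM at those pseudocounts, 2 with gut 1 and 3 separate and 49 with a worm block, and 0 to 1 without a sample. The median log2 fold of the ganglion set was 7.02 and 11.17 with a 10-fold and a 50-fold margin and 8.83 to 9.56 without a sample. For the gut set it was -9.27 and -11.37, and -10.96 to -10.08. Same-numbered ganglion and gut libraries did not deviate together at every dose, so the numbers were not taken as pairs. Under a replicate block, and with gut 1 and 3 separate, 7607 and 6333 features were called at the low dose, 1 against control, toward ganglion, and 0 against the high dose, and DN88869_c4_g1 was not called, at adjusted p values of 0.1435 and 0.0831 by edgeR. The cause of these changes was not tested in any setting, including those that left 1 gut sample, where the set of features tested also changed. Depth limits features under 1 CPM, where few counts stand behind a value.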
